A study of Mus musculus with 6 samples.

Results

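The genes of cAMP-dependent protein kinase (PKA) signaling were examined in inguinal White Adipose Tissue (iWAT), a subcutaneous fat depot, by RNA-seq. The 10 genes are a catalytic subunit (*Prkaca*), regulatory subunits (*Prkar1a* and *Prkar2b*), A-kinase anchoring proteins (*Akap1*, *Akap12* and *Akap6*), phosphodiesterases (*Pde3b*, *Pde4b* and *Pde4d*) and the transcription factor gene *Creb1*. They were chosen by symbol from the 55573 genes listed in the deposited tables, and each symbol matched 1 gene. Libraries came from 3 mutant and 3 Wt male C57BL/6NTac mice, 1 library per mouse, at 3 months of age, on regular chow and without treatment. Mutant mice carry the THRA K283Q/K288R change as a homozygous, global knock-in in *Thra*, present in all cell types and not in adipocytes alone. Wt mice of the same strain were bred in-house, and the sources used here do not say whether mutant and Wt mice were littermates.

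The values are CPM (read counts scaled to library size) divided by a further factor for each mouse, referred to as normalized CPM. Between 19607423 and 24228381 reads on genes lay behind the values of a mouse, and 3 reads corresponded to a value of 0.126 to 0.157. Adipocyte genes were abundant in each mouse, with the 6 genes of an adipocyte list (among them *Adipoq*, *Plin1* and *Fabp4*) summing to 10296 to 17038. Skeletal muscle genes were abundant as well, and the sum of a list of 12 was 13858 to 29503 for the Wt mice against 22478 to 35177 in mutant mice. The B and T lymphocyte list of 7 genes summed to 304 to 719 in the Wt mice, to 393 and 597 in mutant mice 2 and 3, and to 4.24 in mutant mouse 1, which stands apart in this respect. Mesothelial genes separated the genotypes, with the sum of 5 genes at 1.99 to 4.59 for the Wt mice against 29.8 to 61.6 in mutant mice. The transcript of *Thra* itself was present in all mice, at 130.7 ± 15.2 (SD, n = 3) for the Wt mice against 148.8 ± 18.3 (SD, n = 3) in mutant mice. This does not test the labels, since the mutation changes codons and need not change the level of the transcript. In bulk tissue, fewer cells of a type cannot be told apart from less RNA per cell.

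PKA is held inactive as a complex of catalytic and regulatory subunits. When a hormone such as noradrenaline raises cAMP, cAMP binds the regulatory subunits and the catalytic subunits are released. Anchoring proteins hold the regulatory subunits at particular places in the cell, and phosphodiesterases break cAMP down and so end the signal. In adipocytes PKA phosphorylates hormone sensitive lipase and perilipin to start lipolysis, insulin opposes it through the phosphodiesterase encoded by *Pde3b*, and in the nucleus PKA phosphorylates CREB, which binds the cAMP response element (CRE) of its target genes.

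The promoters are shown because CREB acts through the CRE. RefSeq promoter windows of GRCm38.p6 (300 bases, of which 250 lie before the start site and 50 after it) were given for 8 of the 10 genes, 20 windows in all, many of them overlapping or alternative starts of a gene. The full palindromic CRE, TGACGTCA, was searched, and its 5-letter arms TGACG and CGTCA, which the full motif contains, were searched on both strands. The full motif was found in *Prkar1a* alone among the 8 genes, at 1 position that 2 overlapping windows share. These are 2 of the 20 windows (10%), against 1.79% of all 32851 windows searched. Since the 2 windows hold the same position, they do not count as separate finds. A 5-letter arm was found in 5 of the 20 windows (25%), those of *Prkar1a*, *Prkaca* and *Pde4b*, against 20.8% of all windows. A match is a description of the letters and not a measured binding site. The stretches below are from the + strand, read 5′ to 3′, with matched letters in capitals. That of *Prkar1a* is chr11:109650889-109650918 (GRCm38.p6) and holds the full motif, at -49 from the start site at 109650949 and inside the transcript of a start further upstream. That of *Prkaca* is chr8:83972728-83972977, the 250 bases before a start site, with arms at -120 and -6. That of *Pde4b* is chr4:102421305-102421554, with an arm at -34 of an internal start site. That of *Akap6*, the gene of the 10 that differed between the genotypes, is chr12:52699133-52699382 and holds none of these letters in its 300-base window.
Prkar1a: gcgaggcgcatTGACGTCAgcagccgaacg
Prkaca: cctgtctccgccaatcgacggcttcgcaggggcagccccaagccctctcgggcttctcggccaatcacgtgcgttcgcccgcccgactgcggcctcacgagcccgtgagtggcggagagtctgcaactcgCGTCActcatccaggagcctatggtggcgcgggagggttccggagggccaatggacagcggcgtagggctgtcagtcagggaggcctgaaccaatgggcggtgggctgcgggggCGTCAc
Pde4b: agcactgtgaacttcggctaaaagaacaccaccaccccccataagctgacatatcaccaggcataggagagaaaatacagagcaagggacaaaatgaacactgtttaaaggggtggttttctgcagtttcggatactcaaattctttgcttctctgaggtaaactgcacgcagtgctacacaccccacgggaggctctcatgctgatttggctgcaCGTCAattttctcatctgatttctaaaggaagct
Akap6: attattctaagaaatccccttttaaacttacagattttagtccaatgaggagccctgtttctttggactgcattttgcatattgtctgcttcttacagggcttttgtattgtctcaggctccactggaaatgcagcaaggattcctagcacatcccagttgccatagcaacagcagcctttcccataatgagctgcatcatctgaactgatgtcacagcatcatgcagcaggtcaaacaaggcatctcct

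Scaled to the length of their exons (GENCODE M21, GRCm38), the 10 genes spanned 2 orders of magnitude in iWAT. *Prkar2b*, the type II regulatory subunit typical of adipocytes, was the most abundant, with a median of 131 normalized CPM per kb over the 6 mice (lowest 100.8, highest 184). Its lowest mouse lay above the highest mouse of *Prkaca*, which had a median of 71.8 (66.4 to 98.4). *Prkar1a*, the ubiquitous type I regulatory subunit, followed at 58.75 (55.8 to 67.0), and its range overlapped that of *Prkaca*. Below these came *Pde3b* at 31.0 (25.97 to 39.6), *Akap12* at 22.6 (17.1 to 29.1) and *Akap1* at 18.2 (14.5 to 23.3), whose ranges overlap from neighbour to neighbour. The genes of the cAMP-specific PDE4 enzymes and of CREB were lower. *Pde4b* was at 4.61 (3.33 to 5.66), *Creb1* overlapped it at 3.93 (3.13 to 4.94), and *Pde4d* stood below both at 2.60 (2.24 to 2.96). *Akap6*, which anchors PKA at the nuclear envelope and sarcoplasmic reticulum of muscle cells, was the lowest at 0.997 (0.47 to 1.61). These per-length values order the genes and were not used for tests.

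**Figure D1:**
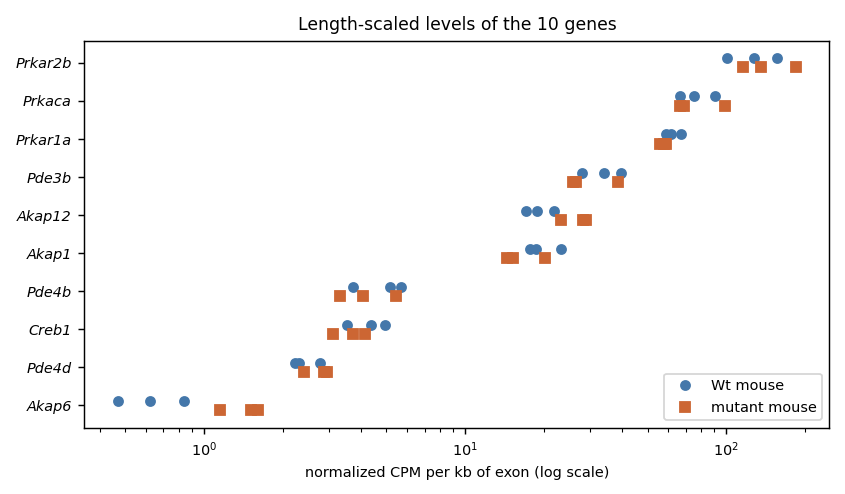
Each point is 1 mouse (circles Wt, squares mutant), and the x axis gives normalized CPM per kb of exon on a log scale for the 10 genes in order of their median. *Prkar2b* lies at 100.8 to 184 and *Akap6* at 0.47 to 1.61, and *Akap6* and *Akap12* are the genes in which the points of the genotypes do not overlap.

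Among the kinase subunits, no difference between mutant and Wt mice was larger than the spread between mice. On GRCm38, *Prkaca* (ENSMUSG00000005469) at chr8:83972993-83996443 on the + strand, *Prkar1a* (ENSMUSG00000020612) at chr11:109649405-109669656 on the + strand and *Prkar2b* (ENSMUSG00000002997) at chr12:31958476-32061296 on the − strand are protein-coding genes. *Prkaca* was at 226, 186 and 166 normalized CPM for the Wt mice (1, 2, 3 in turn), against 245, 165 and 171 for mutant mice 1, 2, 3. Mouse 1 was the highest of each genotype, the groups overlapped, and the means were 192.7 ± 30.6 and 193.6 ± 44.5 (SD, n = 3 each). On the log2 scale the difference was -0.00 (95% interval -0.46 to 0.45, adjusted p = 0.989, limma), and its sign turned with the scaling of the libraries, so no direction is given. *Prkar1a* was the steadiest of the 10, at 264, 289 and 254 for the Wt mice against 254, 248.5 and 241 in mutant mice. Mutant mouse 1 reached just above the lowest Wt mouse and the other two lay below it, and the log2 difference was -0.12 (95% interval -0.32 to 0.09, adjusted p = 0.4375, limma). *Prkar2b* varied more, at 570, 464 and 368 for the Wt mice against 672, 495 and 422 in mutant mice. The groups overlapped widely, with a log2 difference of 0.18 (95% interval -0.37 to 0.72, adjusted p = 0.653, limma). Per kb of exon, the level of *Prkar2b* was 2.55, 1.90 and 1.72 times that of *Prkar1a* for the Wt mice against 3.13, 2.36 and 2.07 times in mutant mice. The mean ratio of 2.06 ± 0.44 for the Wt mice against 2.52 ± 0.55 in mutant mice (SD, n = 3 each) did not separate them (exact two-sided permutation p = 0.4, where 3 mice against 3 cannot go below 0.1).

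The anchoring proteins did not move together: *Akap6* was higher in mutant mice, *Akap12* had higher values that missed the FDR of 0.05, and *Akap1* had lower values that overlapped. On GRCm38, *Akap1* (ENSMUSG00000018428) at chr11:88830792-88864586 on the − strand, *Akap12* (ENSMUSG00000038587) at chr10:4266380-4359470 on the + strand and *Akap6* (ENSMUSG00000061603) at chr12:52699383-53155599 on the + strand are protein-coding genes. *Akap6* was at 9.22, 12.4 and 6.98 normalized CPM for Wt mice 1, 2, 3 against 22.6, 17.1 and 23.9 for mutant mice 1, 2, 3, from 166 to 510 reads per mouse. Each mutant mouse was above each Wt mouse, and the mean rose 2.22-fold, from 9.55 ± 2.75 to 21.2 ± 3.57 (SD, n = 3 each). Its log2 difference was 1.13 (standard error 0.23, 95% interval 0.58 to 1.68, adjusted p = 0.0342, limma). This call was kept without Wt mouse 2 and lost without each of the other 5 mice, with adjusted p between 0.0375 and 0.101 (limma) and log2 differences between 0.94 and 1.33. *Akap6* was also on the study's own list for PKA signaling, which was chosen on these samples, so its direction is not independent evidence. *Akap12*, which encodes gravin, a scaffold for PKA at the plasma membrane, was at 142, 121 and 111 for the Wt mice against 188, 183 and 150 in mutant mice. No values overlapped, and the ratio of means was 1.39, with a log2 difference of 0.48 (standard error 0.13, 95% interval 0.16 to 0.79, adjusted p = 0.0828, limma). *Akap12* passed the FDR when the recovered reads were scaled by library size only (adjusted p = 0.0385, limma) and with DESeq2's Wald test (adjusted p = 0.0103). A fibroblast and preadipocyte list of 5 genes, summed, was at 2412 to 3003 in the Wt group and 2796 to 3949 in the mutant group, with 4 of the 5 genes higher without overlap (14.9% of all genes) and its mean log2 level higher by 0.32 (exact two-sided permutation p = 0.1), and its part in the *Akap12* values was not tested. *Akap1*, which anchors PKA at the outer mitochondrial membrane, was at 102, 82.2 and 77.7 for the Wt mice against 88.8, 63.6 and 67.0 in mutant mice. Mutant mouse 1 lay within the Wt range and the other two below it (log2 difference -0.26, 95% interval -0.65 to 0.13, adjusted p = 0.373, limma).

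The phosphodiesterases of the 10 did not pass the test in either direction. On GRCm38, *Pde3b* (ENSMUSG00000030671) at chr7:114415281-114539251 on the + strand, *Pde4b* (ENSMUSG00000028525) at chr4:102087543-102607259 on the + strand and *Pde4d* (ENSMUSG00000021699) at chr13:108449948-109953461 on the + strand are protein-coding genes. *Pde3b*, which insulin activates in adipocytes, was at 361, 309 and 257 for the Wt mice against 349, 243 and 237 in mutant mice. Mouse 1 was again the highest of each genotype, and the log2 difference was -0.17 (95% interval -0.64 to 0.30, adjusted p = 0.612, limma). *Pde4b*, abundant in leukocytes, was at 39.5, 59.8 and 54.2 for the Wt mice against 35.1, 43.0 and 57.2 in mutant mice. Mouse 1 was the lowest of each genotype, and the groups overlapped (log2 difference -0.19, 95% interval -0.72 to 0.35, adjusted p = 0.623, limma). *Pde4d*, a cAMP-specific enzyme found in many tissues including muscle, was at 27.8, 33.4 and 26.9 for the Wt mice against 34.6, 28.99 and 35.6 in mutant mice. Its log2 difference was 0.17 (95% interval -0.13 to 0.47, adjusted p = 0.436, limma), with mutant mouse 2 inside the Wt range.

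*Creb1* (ENSMUSG00000025958, chr1:64532645-64604548 on the + strand), the nuclear end of the pathway, was at 48.6, 67.9 and 59.8 for the Wt mice against 43.0, 51.0 and 56.9 in mutant mice. Mutant mouse 1 was the lowest of all and Wt mouse 2 the highest, with the remaining mice interleaved. The means were 58.75 ± 9.68 and 50.3 ± 6.99 (SD, n = 3 each), a log2 difference of -0.22 (95% interval -0.59 to 0.16, adjusted p = 0.426, limma). These intervals bound the differences and do not show that the genotypes were alike.

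**Figure D2:**
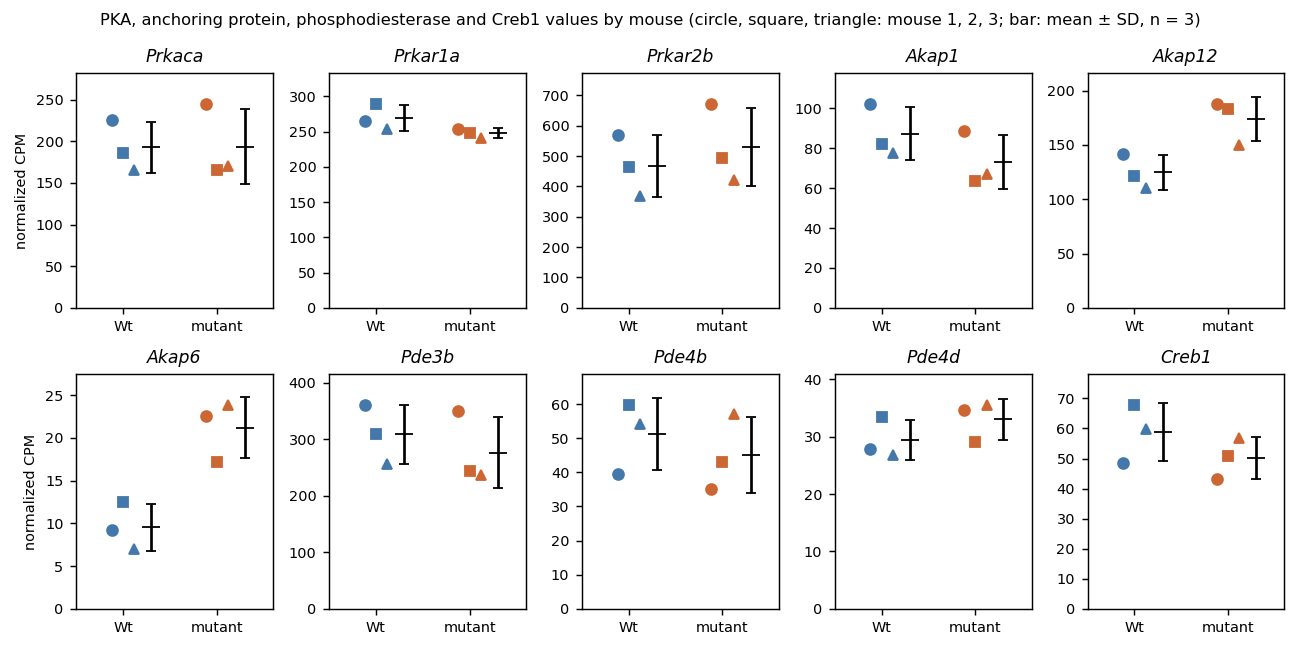
Normalized CPM (y axis, from 0) of each of the 10 genes in 3 Wt and 3 mutant mice, with circle, square and triangle for mice 1, 2 and 3 and a bar for the mean ± SD. *Akap6* (Wt 6.98 to 12.4, mutant 17.1 to 23.9) and *Akap12* (Wt 111 to 142, mutant 150 to 188) are the panels without overlap.

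Taken as a list, the 10 genes passed the test at a share close to that of all genes. All 10 passed the filter on low values, and 1 (10%) passed the FDR, *Akap6*, against 8.11% of the 16868 genes tested (5.50% as higher, 2.61% as lower). With the recovered reads in edgeR's quasi-likelihood test the count was also 1, against 6.92%, and by DESeq2 it was 2, against 12.6%. At an unadjusted p under 0.05 there were 2 of 10, *Akap6* and *Akap12*, and 4075 (24.2%) of all genes. The same 2 (20%) had groups that did not overlap, both higher, against 30.6% of all genes tested (14.9% higher and 15.7% lower). Among all genes, 928 were higher and 440 lower in mutant mice, a split that became 1019 and 265 with scaling by library size only. The median log2 difference was -0.06 over the 10 genes and -0.05 over all genes. The genotype fit rests on 3 mice per group, and nothing in the labels gives a batch.

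Because *Akap6* is also a muscle gene, its values were set beside skeletal muscle genes. The mean log2 level of the muscle list was 8.78, 9.94 and 8.83 for Wt mice 1, 2, 3 against 10.84, 10.22 and 10.82 for mutant mice 1, 2, 3, higher by 1.44 in mutant mice (exact two-sided permutation p = 0.1, the smallest possible). Of its 12 genes, 1 passed the FDR (*Myh1*, 14.2-fold, adjusted p = 0.0208, limma), 8.33% against 8.11% of all genes. In 5 of the 12 (41.7%) the groups did not overlap, all higher in mutant mice. Over all genes this share was 14.9% as higher and 30.6% in either direction. The 5 were *Myh1*, *Myh2*, *Myh7*, *Mb* and *Mylpf*, named after their values were seen. *Myh2* and *Myh7* encode myosin heavy chains of oxidative fibres, *Myh1* that of type IIx fibres, *Mb* myoglobin and *Mylpf* a fast myosin light chain. *Myh7*, the slow myosin heavy chain, was at 2.47, 150 and 35.8 for the Wt mice against 444, 303 and 422 in mutant mice. The most abundant genes of the list overlapped between the genotypes. *Myh4*, the fast glycolytic myosin, was at 8708 ± 3241 for the Wt mice against 7800 ± 2194 in mutant mice (SD, n = 3 each), and the log2 differences of *Atp2a1* and *Acta1* were 0.29 and 0.72 (adjusted p = 0.681 and 0.308, limma). Measured against the muscle list in the same mouse, *Akap6* was at -5.50, -6.25 and -5.92 relative to the list mean (log2) for the Wt mice against -6.31, -6.08 and -6.21 in mutant mice. On this scale the groups overlapped (difference -0.31, exact two-sided permutation p = 0.3). The mean of the muscle list depends on the genes listed. Their log2 differences ran from -0.12 (*Myh4*) to 4.31 (*Myh1*) with a median of 0.71, beside 1.13 for *Akap6*. The part of muscle tissue in the *Akap6* difference was not tested.

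Over the 6 mice, the genes with a profile most like that of *Akap6* among 10727 abundant genes were *Nrap*, *Apobec2* and *Kcnc4*, with Pearson's r of 0.998, 0.996 and 0.996. *Nrap* encodes an actin-anchoring protein of striated muscle and *Apobec2* a deaminase-family protein of striated muscle, while *Kcnc4* encodes a voltage-gated potassium channel. *Nrap* was at 162, 219 and 107 for the Wt mice against 503, 357 and 515 in mutant mice. In both genes mutant mouse 2 was the lowest mutant and Wt mouse 2 the highest Wt mouse. An r above 0.95 was reached by 126 genes, and since the groups overlap neither in these 3 genes nor in *Akap6*, it is given as a description.

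**Figure D3:**
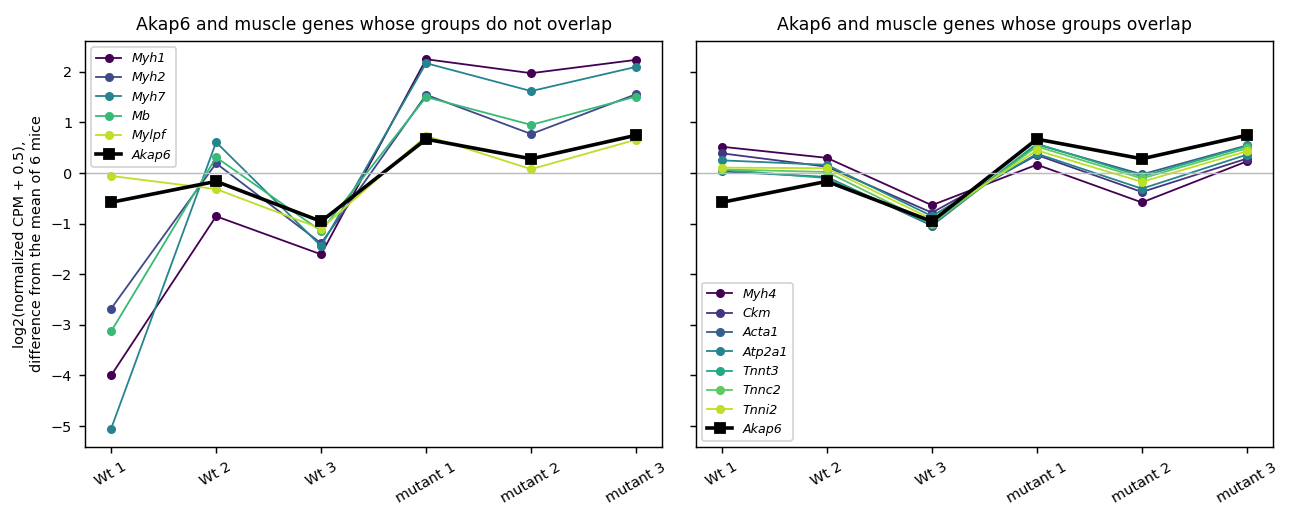
The y axis is log2(normalized CPM + 0.5) as a difference from the mean of 6 mice, with *Akap6* in black and muscle genes in color, and lines only join the points of a gene. Of the muscle genes whose groups do not overlap (left), *Myh7* lies as low as 2.47 normalized CPM in Wt mouse 1, while *Mylpf* is lowest in Wt mouse 3. Those whose groups overlap (right), such as *Myh4*, are lowest in Wt mouse 3.

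In some of the 10 genes mouse 1 was the highest of both genotypes, in others the lowest, and some cell type lists shared this place of mouse 1. *Prkar1a*, *Akap6* and *Pde4d* showed neither, and mice 2 and 3 did not keep a common order. The genes set beside lists were picked for this after their values were seen. *Prkaca*, *Prkar2b*, *Akap1* and *Pde3b* were highest in mouse 1 of both genotypes, as was the adipocyte list, with mean log2 levels of 10.68, 10.28 and 10.15 for Wt mice 1, 2, 3 against 10.66, 10.40 and 10.04 in mutant mice. *Akap12* was highest in the same mice, and so was the fibroblast and preadipocyte list. That list was at 8.38, 8.34 and 8.23 for Wt mice 1, 2, 3 against 8.83, 8.64 and 8.43 in mutant mice. It and the adipocyte list fell in the order of mice 1, 2, 3 in both genotypes, so the order of mice does not tell these lists apart. Expressed against the adipocyte list (log2), the SDs over the Wt and the mutant mice were 0.10 and 0.09 for *Prkar2b*, 0.06 and 0.21 for *Prkaca*, 0.07 and 0.22 for *Akap1*, and 0.09 and 0.17 for *Pde3b*. These 4 genes were picked for sharing the place of mouse 1 with this list, so small SDs follow in part from the choice. The SDs were 0.10 and 0.15 for *Akap12*, 0.29 and 0.27 for *Prkar1a*, and between 0.34 and 0.66 for *Akap6*, *Pde4b*, *Pde4d* and *Creb1*. The mean of the adipocyte list hardly differed between the genotypes (-0.00), so this scale leaves the differences between them as they were. Its genes went both ways, and none passed the FDR (limma). The log2 difference was 0.67 for *Lep* and 0.13 for *Pparg*. It was -0.38 for *Cidec*, -0.24 for *Plin1*, -0.10 for *Fabp4* and -0.08 for *Adipoq*, so the mean depends on the genes listed. *Pde4b* and *Creb1* were lowest in mouse 1 of both genotypes. The lymphocyte list was lowest in the same mice, with mean log2 levels of 5.11, 6.23 and 6.499 for the Wt mice against 0.10, 5.57 and 6.07 in mutant mice, and all 7 of its genes lay between 0.21 and 1.05 normalized CPM in mutant mouse 1. With a mouse left out, the log2 difference of *Pde4b* ran from -0.37 (without mutant mouse 3) to -0.02 (without mutant mouse 1), and was -0.36 without Wt mouse 1. That of *Creb1* ran from -0.35 (without Wt mouse 1) to -0.11 (without Wt mouse 2 and likewise without mutant mouse 1). Neither gene passed the FDR in any of these fits. The part of these cell types in the values was not tested.

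**Figure D4:**
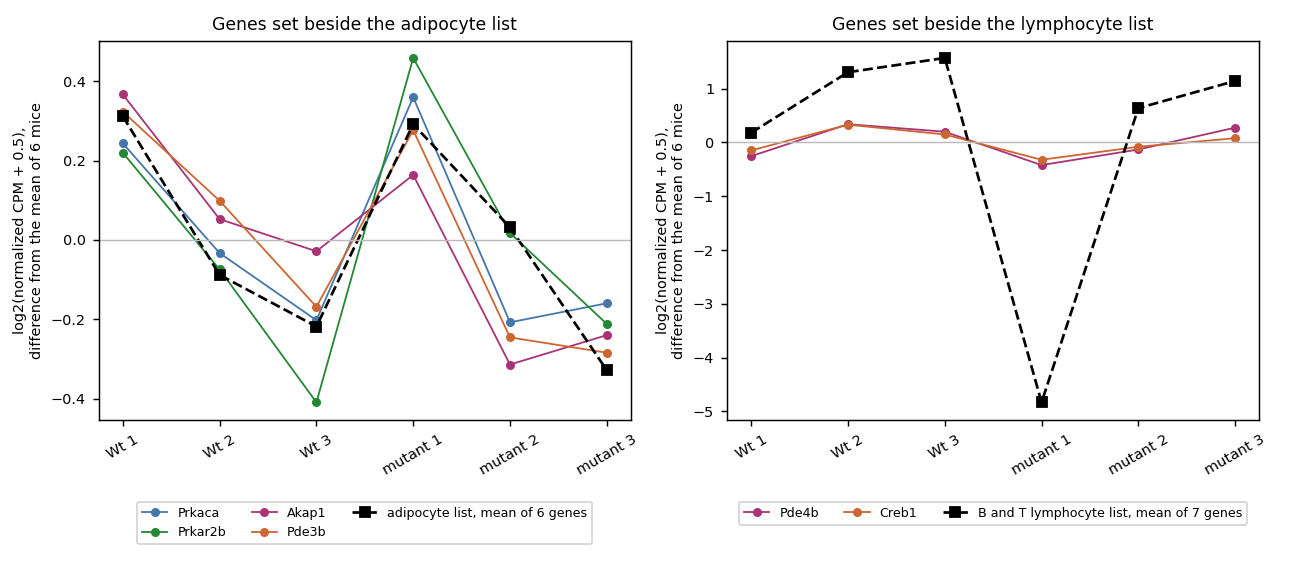
The y axis is log2(normalized CPM + 0.5) as a difference from the mean of 6 mice, for 4 genes beside the mean of 6 adipocyte genes (left) and for *Pde4b* and *Creb1* beside the mean of 7 lymphocyte genes (right, wider scale), and lines only join the points of a gene or list. Mouse 1 of each genotype is the highest on the left and the lowest for *Pde4b* and *Creb1* on the right, where the lymphocyte list of mutant mouse 1 is at 0.10 before centring.

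The other genes of the cAMP pathway also passed at a share close to that of all genes. Of 61 listed, 60 were found by symbol (*Akap2* was not) and 58 were tested. The FDR was passed by 3 with higher and 1 with lower values in mutant mice, 6.90% against 8.11% of all genes. Their median log2 difference was -0.08 (all genes -0.05), and 17 had an unadjusted p under 0.05, against 24.2% of all genes. *Dusp1*, a phosphatase gene induced by cAMP and many other stimuli, was at 37.9, 38.5 and 36.1 for the Wt mice against 70.5, 55.0 and 57.3 in mutant mice. It rose 1.63-fold (log2 difference 0.69, standard error 0.11, adjusted p = 0.0155, limma). *Fos*, an immediate early gene with a CRE, rose 1.94-fold, from 5.05 ± 0.603 to 9.82 ± 1.96 (SD, n = 3 each, adjusted p = 0.0331, limma). *Dusp1* and *Fos* belong to 9 listed cAMP-induced CREB targets, of which 7 did not pass. The log2 differences of the 9 ran from -0.82 to 0.88, with a median of 0.07. Of the 7, *Sik1*, named after its value was seen, was lower without overlap (log2 difference -0.43, adjusted p = 0.0579, limma) and passed with DESeq2. *Pde3a*, the paralog of *Pde3b* found in heart and smooth muscle, rose 1.52-fold, from 11.01 ± 0.279 to 16.8 ± 2.32 (SD, n = 3 each, adjusted p = 0.0447, limma). *Akap8l*, which encodes a nuclear protein related to the anchoring protein AKAP8, fell to 0.756 of the Wt mean, at 103.5, 105 and 114 for the Wt mice against 80.1, 80.0 and 84.1 in mutant mice (adjusted p = 0.0257, limma). Each of the 4 genes that passed had groups without overlap. Of the 58 genes tested, 27.6% had groups without overlap (9 higher and 7 lower in mutant mice), against 30.6% of all genes. With a mouse left out, between 0 and 2 of the genes tested were called: *Dusp1* without mutant mouse 1, 2 or 3, *Pde3a* also without mutant mouse 2, and *Adcy1* without Wt mouse 1. The calls of *Fos* and *Akap8l* were lost whichever mouse was left out, that of *Dusp1* without each of the Wt mice, and that of *Pde3a* without each mouse but mutant mouse 2. The call of *Pde3a* was also lost with no filter on low values and with at least 10 reads in every mouse, and that of *Akap8l* with scaling by library size only. Exons of *Pde3a* share 741 bases with *Gm28523* on the other strand, whose level was 0.0731 of that of *Pde3a*, and exons of *Dusp1* share 11 bases with the more abundant *Ergic1*.

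By role, the other kinase subunits and inhibitors did not pass in limma. *Prkar2a*, the type II subunit of many tissues, was at 58.9 to 82.5 for the Wt mice against 83.2 to 108 in mutant mice, without overlap (log2 difference 0.44, adjusted p = 0.161, limma). The same held for *Pkia*, a PKA inhibitor peptide gene abundant in muscle, at 43.5 to 97.45 and 102 to 165 (log2 difference 0.91, adjusted p = 0.163, limma), which passed with DESeq2, and both are named after their values were seen. Of the most abundant genes that did not pass, *Gnas*, the gene of the stimulatory G protein, had a log2 difference of 0.08 and *Akap13* of -0.47 (adjusted p = 0.734 and 0.310, limma). Among the adenylyl cyclases, which make cAMP, *Adcy6* had a log2 difference of -0.17 (adjusted p = 0.460, limma). *Adcy5* was at 200, 149 and 155 for the Wt mice against 124, 112 and 88.0 in mutant mice, without overlap, and missed the FDR (log2 difference -0.64, 95% interval -1.04 to -0.23, adjusted p = 0.0736, limma). It passed with scaling by library size only and with DESeq2. The 7 genes of CREB relatives and coactivators had log2 differences of -0.49 to 0.19 with a median of -0.30, and 4 of them had an unadjusted p under 0.05 against 24.2% of all genes, without passing the FDR in limma or in edgeR's quasi-likelihood test. *Crtc2*, the coactivator that enters the nucleus on cAMP, named after its value was seen, was the lowest of these at a ratio of 0.713 (adjusted p = 0.0845, limma) and passed with DESeq2.

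**Figure D5:**
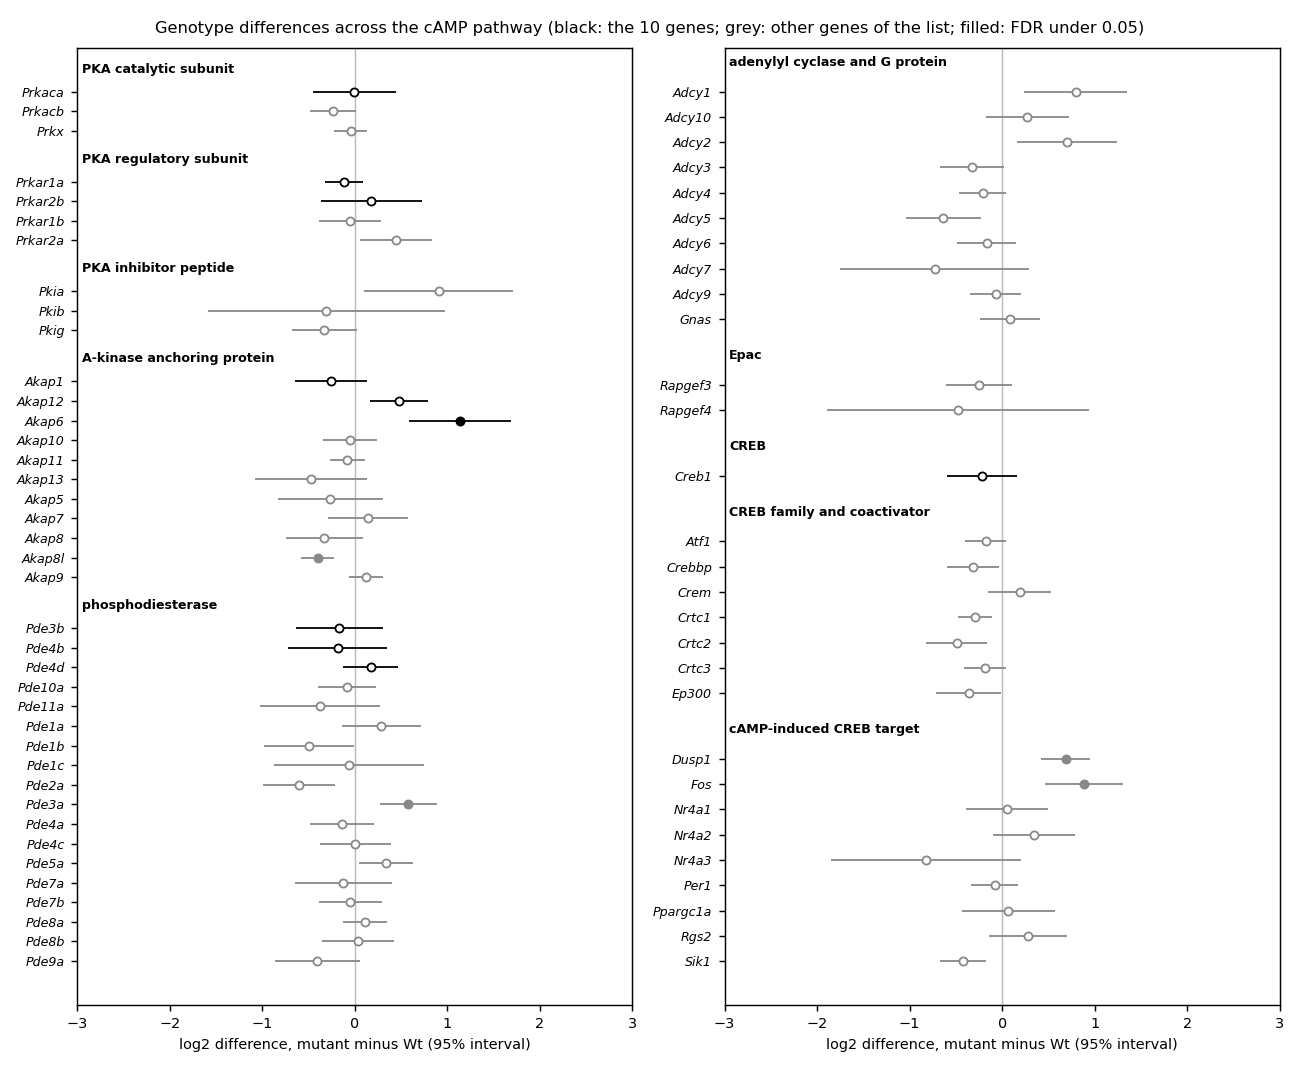
Log2 differences between mutant and Wt mice (x axis, with 95% intervals) for the 10 genes in black and 58 other genes of the cAMP pathway in grey, grouped by role, with filled points for an FDR under 0.05. Filled points are *Akap6* at 1.13, *Pde3a* at 0.58, *Dusp1* at 0.69, *Fos* at 0.88 and *Akap8l* at -0.40.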

How the data were processed

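Total RNA of inguinal fat from 3 mutant and 3 Wt mice was sequenced by the authors' core facility. The submitters' processing notes name Bowtie2 2.1.0, RSEM 1.2.15, edgeR and the build mm10, without role or order; annotation and use of strand are not given in the sources used here. Per gene and mouse, the authors deposited a normalized signal (CPM divided by a further factor of 0.962 to 1.109). Nonzero values were whole multiples of a 1-read step (tolerance 0.05) in 100.0% of cases for all mice, so reads were recovered. Same-genotype mice were not duplicates (chi-square over its degrees of freedom 19.3 to 64.9). The p-values set a difference between the genotypes against the spread between these mice.

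Genotypes were compared with limma 3.58.1 (mean-variance trend, R 4.3.3) on log2(value + 0.5), with Benjamini-Hochberg adjustment (FDR 0.05) over the 16868 genes kept by filterByExpr of edgeR 4.0.16. Folds are ratios of means of the deposited values, and the pseudocount shrinks log2 differences of genes at low levels. Alternatives were other scalings, edgeR's quasi-likelihood test, DESeq2 1.42.0, other filters and pseudocounts, a replicate block and dropping mice in turn. Comparisons with the muscle and adipocyte lists were chosen after the values were seen. Single measures were tested by an exact permutation test over mice in SciPy 1.17.1. Named genes were the 10 genes, up to 12 others past the FDR by p, up to 4 not past it by level, 3 of like profile to the gene with the smallest p and up to 3 by level per marker list, beside those said to be named later. Genes, lists and rules were chosen with earlier results of these data known. In GENCODE M21 (GRCm38), exons of the 10 genes overlapped those of no other gene.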

Additional observations from a re-analysis of the deposited data

How the results depend on the processing

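Over the 10 genes and 15 alternatives, 133 of 150 log2 differences kept their direction and side of the FDR. The alternatives that leave out a mouse gave 545 to 1043 genes past the FDR, 0 to 1 of the 10 genes, 0 to 2 other pathway genes, and log2 differences of -0.19 to 0.12 for *Prkaca* and -0.009 to 0.33 for *Prkar2b*, which was below 0 without mutant mouse 1. *Prkaca*, at -0.00, was at 0.0004 with library size only, 0.0119 with DESeq2's size factors, 0.0331 with edgeR's quasi-likelihood test and 0.0207 with DESeq2's Wald test. All genes past the FDR numbered 598 with at least 10 reads in every mouse, which tests fewer genes (14638), and 2118 with DESeq2. With library size only 2 of the 10 genes passed (*Akap6* and *Akap12*), and with DESeq2 2 of the 10 and 8 others. The causes were not tested.

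Under a replicate block on the mouse number 4063 genes (24.1%) passed, 3 of the 10 genes (*Akap6*, *Akap12* and *Akap1*) and 19 others of the pathway. Same-numbered mice are different animals, so the numbers were not taken to pair the mice. Their deviations from the genotype means nonetheless correlated at 0.69 for mice 1 and 0.56 for mice 3, and at 0.06 for mice 2. What the same-numbered mice share was not tested. The mean difference in the ratio of *Prkar2b* to *Prkar1a*, before scaling to length, stayed between 0.14 and 0.60, and that of the muscle list between 1.24 and 1.82, with a mouse left out.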

Other observations

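The study's own list for PKA signaling holds 11 genes, of which *Akap6* is the only one among the 10 genes described above. These genes were chosen on the same samples, so their counts are not independent evidence. All 11 had higher values in each mutant mouse than in any Wt mouse, against 14.9% of all genes tested. The FDR of 0.05 was passed by 7 of them (63.6%), against 8.11% of all genes (limma). Several of the 11 encode sarcomere proteins, such as *Myh2*, *Myl2*, *Myl6b* and *Tnni1*, named after their values were seen. *Flnc*, filamin C of muscle, was 3.34-fold higher (adjusted p = 0.00928, limma), and *Ppp1r3c*, a glycogen-targeting subunit of protein phosphatase 1, was 2.97-fold higher (adjusted p = 0.00284, limma). For *Pde6h*, a phosphodiesterase subunit gene of cone photoreceptors, and *Tulp2*, exons are shared on the other strand with *Arhgdib* (136 bases) and *Dhdh* (387 bases), whose mean values were 72.5 and 202 times as high. Reads of such partners cannot be told apart where counting ignored strand, and the use of strand is not given in the sources used here.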
